A study of Mus musculus with 30 samples.

Results

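The peptides of the AgRP neurons of the hypothalamus and the receptors of one of them were followed through fasting and refeeding as 5 genes, matched by Ensembl identifier: Agrp, Npy, Npy1r, Npy2r and Npy5r. All 5 had a row in each of the 3 deposited count tables, which hold 52286 genes (fasting), 55401 genes (refeeding) and 22371 genes (1 month), and all 5 passed the filter on low counts in each table. Bulk RNA of the hypothalamus came from wild-type B6 mice in 9 groups and 30 libraries, without a transgene or deletion in any of them. The fasting table holds 4 groups of 3 libraries each, labelled fed, 24 h fasted, 72 h fasted, and 72 h fasted with cold treatment at 18 C. The refeeding table holds mice that were fasted for 72 h and then fed again for 1 h (n = 3), 12 h (n = 3) or 1 week (n = 4), with no fed control among its libraries. In the 1-month table, 1 month of refeeding after the 72 h fast (n = 4) stands against a fed control of its own (n = 4). Age and sex are not given in the sources used here, nor is the number of animals behind the libraries, so the p-values measure the spread between libraries, which may be technical.

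AgRP neurons lie in the arcuate nucleus at the base of the hypothalamus and promote feeding when energy stores are low. They release the inhibitory transmitter GABA and 2 peptides. AgRP, encoded by Agrp, blocks the melanocortin receptors on which satiety signals from POMC neurons act, and neuropeptide Y, encoded by Npy, acts on a family of receptors coupled to inhibitory G proteins. The Y1 and Y5 receptors, encoded by Npy1r and Npy5r, sit on target neurons and mediate much of the feeding response to neuropeptide Y, whereas the Y2 receptor, encoded by Npy2r, is largely presynaptic and limits release, on AgRP neurons too. Agrp is known as a marker of these neurons, while Npy is also made by interneurons of the cortex and striatum and by other hypothalamic cells. In bulk RNA, fewer cells of a type and less RNA per cell cannot be told apart.

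In GENCODE M21 (GRCm38), Npy (ENSMUSG00000029819) spans chr6:49822710-49829507 on the plus strand. Npy2r (ENSMUSG00000028004) spans chr3:82538383-82548084 on the minus strand. Npy5r (ENSMUSG00000044014), at chr8:66679965-66688128 on the minus strand, and Npy1r (ENSMUSG00000036437), at chr8:66697192-66706792 on the plus strand, lie head to head with 9063 bases between their annotated starts. No other annotated gene overlaps these 4 genes. The bases just upstream of an annotated start are shown for Npy, the member with the largest changes, and for Npy5r, a receptor gene called lower after the 72 h fast like its neighbour Npy1r. Both were read from RefSeq (GRCm38.p6), 5′ to 3′ on the gene's own strand, at chr6:49822460-49822709 (plus strand) and chr8:66688129-66688344 (minus strand).
Npy: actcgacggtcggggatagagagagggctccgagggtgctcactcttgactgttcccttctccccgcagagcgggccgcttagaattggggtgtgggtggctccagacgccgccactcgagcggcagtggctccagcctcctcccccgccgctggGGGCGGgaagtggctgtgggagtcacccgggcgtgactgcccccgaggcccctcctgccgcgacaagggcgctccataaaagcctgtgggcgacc
Npy5r: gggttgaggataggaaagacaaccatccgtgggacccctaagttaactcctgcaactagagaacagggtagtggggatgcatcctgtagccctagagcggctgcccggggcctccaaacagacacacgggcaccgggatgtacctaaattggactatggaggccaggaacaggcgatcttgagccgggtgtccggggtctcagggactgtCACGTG
Capitals mark the motifs that a search of both strands found. The Npy window holds the GC box GGGCGG, which 32.7% of 32851 RefSeq promoter windows hold in their 250 bases before the start, has a GC content of 69.2% and counts 21 CpG. The Npy5r window ends in the E-box CACGTG, which 6.02% of windows hold, has a GC content of 58.3% and counts 9 CpG. In the windows of Npy, Npy1r, Npy2r and Npy5r, no match was found to the CRE half-site TGACG (17.8% of windows), the FoxO motif GTAAACA (3.17%), the STAT motif TTCNNNGAA (7.02%) or TATAAA (12.4%), and the GC box occurred once more, in Npy2r. A match describes letters in a window and is not a binding site.

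Agrp (ENSMUSG00000005705) is annotated at chr8:105566698-105637393 on the minus strand, and its values carry a limit that the other 4 genes do not. Its span of 70696 bases is 59.9% covered by other genes, and its 393 coding bases lie entirely within Gm38250, an antisense gene on the plus strand at chr8:105566324-105578109. Gm38250 itself had 3 to 16 counts (median 10) in the fasting libraries and 6 to 32 counts (median 14) in the refeeding libraries. Ripor1, a protein-coding gene inside the span of Agrp on the opposite strand, was listed at 0 in every fasting and refeeding library but had 1199 to 1756 counts in the 1-month libraries. Of 476 protein-coding genes nested like Ripor1 within a gene of the other strand and read 100 times or more at 1 month, 439 (92.2%) had no count in any fasting or refeeding library, against 0 of 6470 genes without overlap. How far reads from the coding exons of Agrp entered its counts in the fasting and refeeding tables was not tested, and its levels are not compared between tables.

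**Figure D1:**
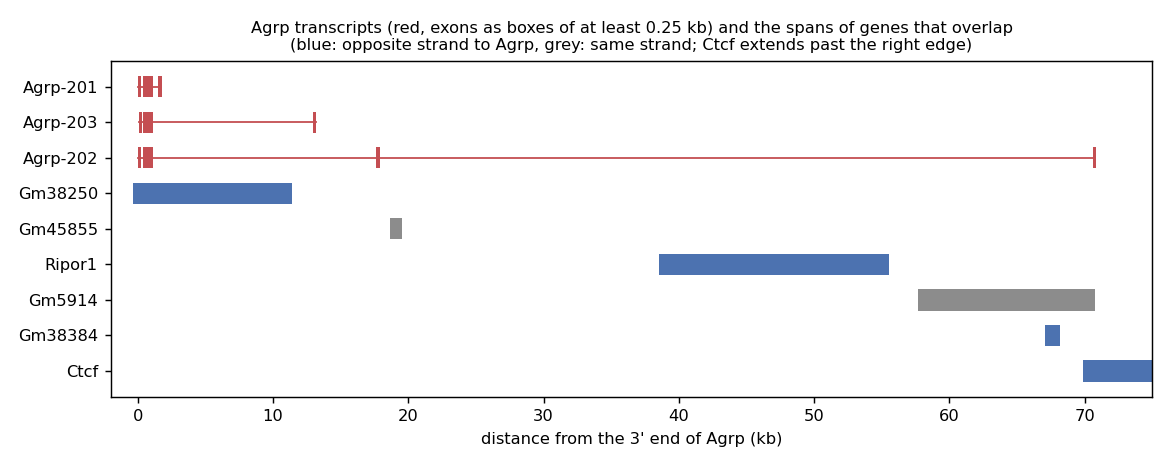
Map of the Agrp locus, with the distance from the 3' end of Agrp in kb on the horizontal axis. The 3 annotated Agrp transcripts (red, exons as boxes) share their coding exons, which lie within Gm38250 (blue, opposite strand), and the longest of them runs across Ripor1 and reaches into Ctcf.

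Total counts per library were 27.1 to 43.4 M (M, 1e6 counts) in the fasting table, 26.1 to 34.1 M at 1 h and 12 h of refeeding, 46.9 to 64.3 M at 1 week and 9.35 to 13.8 M in the 1-month table. The batch label differs for each library and repeats its name, and the column headers of the 1-month table give all 8 libraries a shared number, so the label does not tell which libraries were prepared or sequenced together. The name of the refeeding counts holds more than 1 such number, and which libraries belong to which is not given. The 1-week columns are named in another style than those of 1 h and 12 h. The depth of the 1-week libraries, or a run of their own, cannot be told apart from the time point. All 9 markers of hypothalamic nuclei, among them Oxt, Avp, Hcrt and Pmch, were detected in all 30 libraries, as were 5 of 6 markers of other arcuate neurons, while Kiss1 had 0 counts. The markers of striatal projection neurons, cells outside the hypothalamus, summed to 303 to 1640 CPM over 10 genes and differed between groups. Fed library 2 stood apart in the fasting table with 738 CPM of 5 liver genes and 1029 CPM of skeletal muscle genes, against at most 133 CPM and 13.3 CPM in the other libraries. Expression is given as counts per 1e6 counts on the TMM scale (CPM) with the SD between libraries. Changes are edgeR log2 fold changes ± SE, with the first-named group over the second, and called genes are those under 0.05 in edgeR's quasi-likelihood test after Benjamini-Hochberg adjustment over all genes of the table.

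Per kb of exon, Npy was the most abundant member in each of the 9 groups, with group means of 15.2 to 58.3 CPM per kb. Npy5r was the least abundant in each group, at 1.30 to 3.61 CPM per kb. The other 3 lay between them in an order that differed by group, with group means of 4.07 to 8.25 CPM per kb for Npy2r, 3.54 to 7.81 CPM per kb for Agrp and 3.50 to 6.69 CPM per kb for Npy1r. After 72 h of fasting, for example, Agrp was at 5.32 and Npy2r at 4.07 CPM per kb, whereas in fed libraries Agrp was at 4.83 and Npy2r at 6.54 CPM per kb. The limit on Agrp counts given above holds for its place in this order, as 76.5% of its exon bases lie within other genes. Its range spans tables between which its levels are not compared. Per kb of gene span, which is the fitting length if introns were counted, Agrp was last in each group, at 0.0508 to 0.112 CPM per kb. On that length Npy was first in 8 of the 9 groups, and after 1 week of refeeding it was at 1.26 CPM per kb, below Npy2r at 2.26 and Npy1r at 1.45 CPM per kb. Of the other genes of the family, which encode the related peptides PYY and PP and the Y4 and Y6 receptors, none of 4 passed the filter in any table. Pyy had 0 counts in all 30 libraries, Ppy had at most 3 counts, Npy4r at most 23 and Npy6r at most 9.

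**Figure D2:**
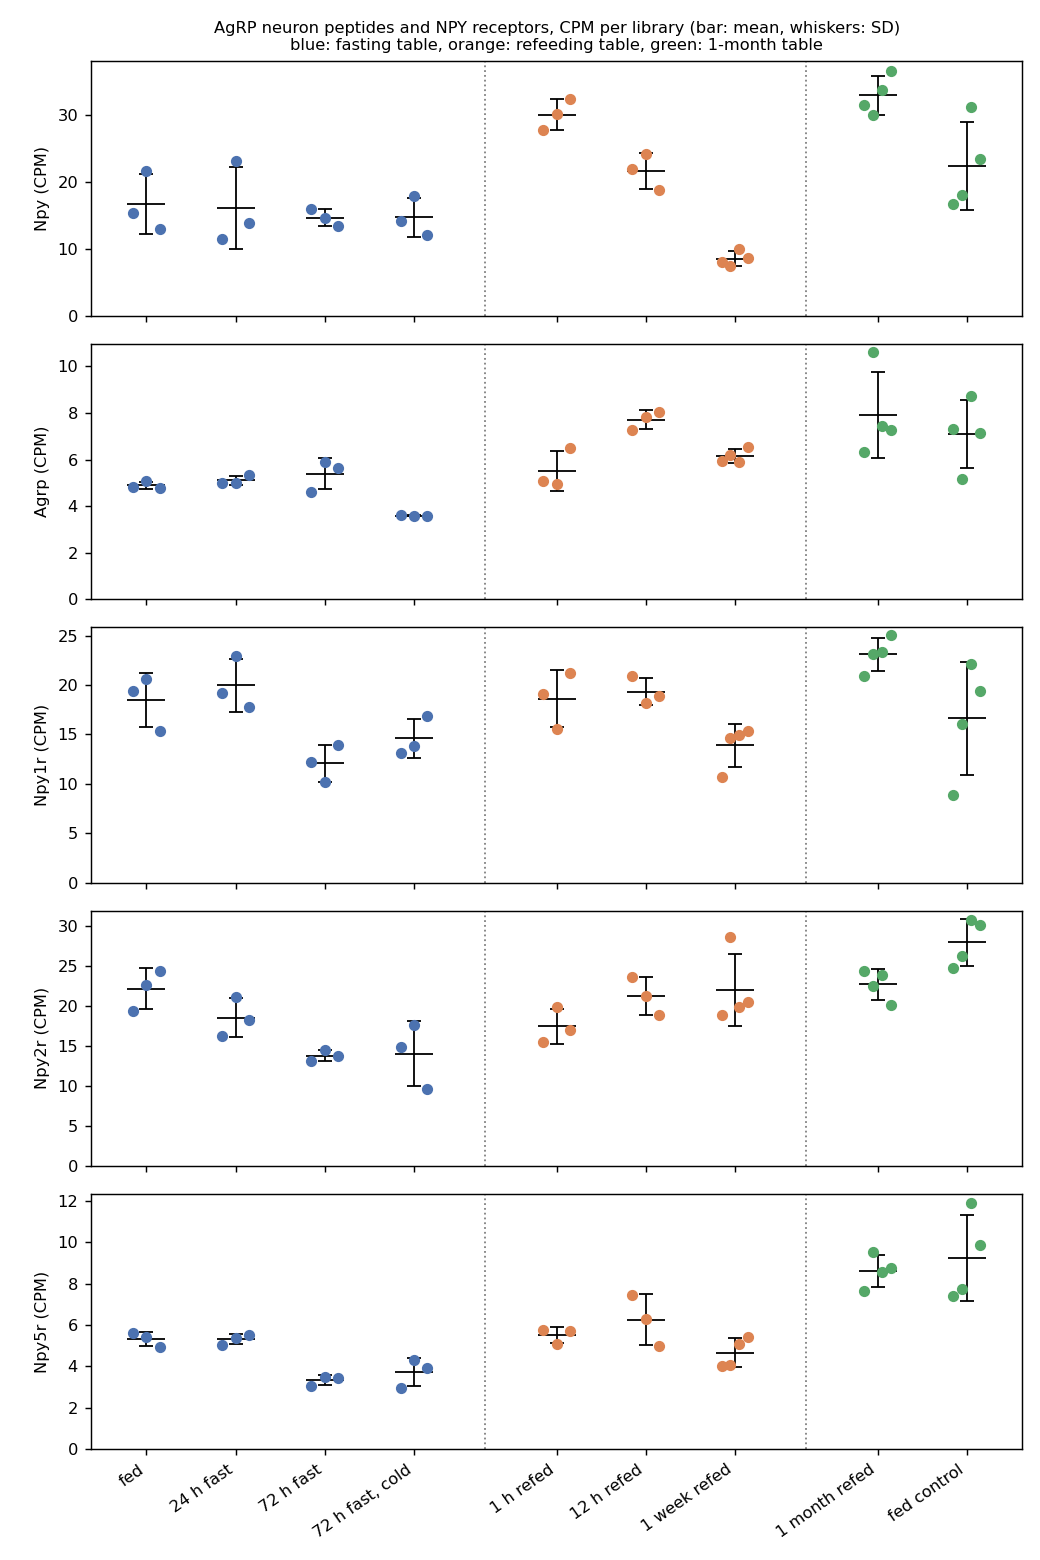
CPM of each member in each of the 30 libraries (points), with group means (bars) and SD (whiskers), n = 3 or 4 a group. Dotted lines part the 3 count tables, between which levels are not tested. Npy runs down from the libraries of 1 h to those of 1 week of refeeding, and the 3 receptors are low in the 72 h fast.

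Neither peptide of the AgRP neurons was called during the fast. Npy was at 15.4, 21.7 and 13.1 CPM in fed libraries, 11.5, 23.1 and 13.9 CPM at 24 h and 16.0, 14.7 and 13.4 CPM at 72 h. All 3 groups overlapped, and the highest and the lowest of these 9 libraries were both at 24 h. Agrp averaged 4.89 ± 0.164 CPM in fed libraries, 5.11 ± 0.194 CPM at 24 h and 5.39 ± 0.668 CPM at 72 h (SD, n = 3 each). The order followed the length of the fast, but neighbouring groups overlapped. These Agrp counts carry the limit given above. After 72 h against fed, the log2 fold change was -0.19 ± 0.25 for Npy (95% interval -0.67 to 0.30) and 0.14 ± 0.15 for Agrp (-0.15 to 0.42).

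After 24 h against fed, none of the 5 members was called, with edgeR's quasi-likelihood test calling 0.0343% of all genes tested, 0.0245% higher and 0.0098% lower. The largest of the 5 differences was that of Npy2r, with a log2 fold change of -0.26 ± 0.18 and an adjusted p of 0.666. For Npy1r it was 0.11 ± 0.16. For Npy5r it was near 0, with a 95% interval of -0.33 to 0.32. The test called 7 of 20408 genes in all here, 2118 having an unadjusted p under 0.05 and DESeq2 calling 240.

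All 3 receptor genes were lower after 72 h of fasting than in fed mice, by between 1.52-fold and 1.61-fold, while the peptides were not called. Npy1r, the Y1 receptor gene, had 12.2, 10.1 and 13.9 CPM at 72 h, against 19.4, 20.6 and 15.4 CPM in fed libraries. Npy2r, the gene of the presynaptic Y2 receptor, had 13.1, 14.5 and 13.7 CPM at 72 h, against 19.4, 22.6 and 24.4 CPM in fed libraries. Npy5r, the Y5 receptor gene, had 3.06, 3.49 and 3.43 CPM at 72 h, against 5.61, 5.42 and 4.95 CPM in fed libraries. For none of the 3 receptors did the groups overlap, a trait that was not counted over all genes. Of the 20408 genes tested here, 7134 had an unadjusted p under 0.05 by edgeR's test. The log2 fold change was -0.61 ± 0.16 for Npy1r (adjusted p = 0.0283), -0.68 ± 0.18 for Npy2r (adjusted p = 0.0311) and -0.68 ± 0.17 for Npy5r (adjusted p = 0.0251), by edgeR's quasi-likelihood test. The 3 of 5 members called lower stand beside 7.78% of all genes called lower and 7.28% called higher, 15.1% in all, and the members' median log2 fold change was -0.61, against 0.01 over all genes tested. Each of the 3 calls was lost without any of 5 of the 6 libraries and held without fed library 3. Without fed library 2, the one with the liver and muscle RNA, the log2 fold change was -0.52 for Npy1r (adjusted p = 0.109), -0.67 for Npy2r (adjusted p = 0.0941) and -0.67 for Npy5r (adjusted p = 0.0806).

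From 24 h to 72 h of fasting the receptor genes lay lower as well. For Npy1r, which had 19.2, 23.0 and 17.7 CPM at 24 h, the log2 fold change of 72 h over 24 h was -0.72 ± 0.16 (adjusted p = 0.0430), the only member called. In this comparison edgeR's test called 1.06% of genes lower and 0.568% higher, 1.63% in all. Npy5r, with 3.33 ± 0.235 CPM at 72 h and 5.31 ± 0.245 CPM at 24 h (SD, n = 3 each), had a log2 fold change of -0.67 ± 0.17 without a call (adjusted p = 0.0608 with edgeR, 0.00377 with DESeq2). Npy2r, with 13.8 ± 0.712 CPM at 72 h and 18.5 ± 2.47 CPM at 24 h, had one of -0.43 ± 0.19 (adjusted p = 0.188). The authors' deposited edgeR table of 72 h over 24 h gives q-values of 0.00121 for Npy1r, 0.0024 for Npy5r and 0.0430 for Npy2r. The libraries of the pair of times did not overlap for any of the 3, which was again not counted over all genes. Of the 20408 genes, 4799 had an unadjusted p under 0.05 by edgeR's test. The call on Npy1r was lost without any one of the 6 libraries, with adjusted p between 0.0527 and 0.149. It was lost too when only the compared groups were fitted (adjusted p = 0.0572).

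Markers of striatal neurons, cortical neurons and the choroid plexus, all outside the hypothalamus, were lower in the same libraries as the receptors. Those of the thalamus and of hypothalamic nuclei were not called. The 10 striatal markers summed to 669 to 1188 CPM in fed libraries, 1051 to 1218 CPM at 24 h and 447 to 523 CPM at 72 h, and edgeR called 7 of the 10 lower at 72 h than in fed mice and none higher. Their sum was 512 to 741 CPM in the cold group. The 5 markers of interneurons that can make neuropeptide Y summed to 154 to 178 CPM at 72 h, against 220 to 251 CPM in fed libraries, and among them Nos1 was called lower (log2 fold change -0.48 ± 0.15, adjusted p = 0.0427). The part of hypothalamic cells in the values of this list was not tested. The 5 detected markers of other arcuate neurons summed to 26.0 to 31.3 CPM at 72 h and 29.6 to 39.6 CPM in fed libraries, and none was called. The 4 cortical markers summed to 13.6 to 17.1 CPM at 72 h, against 34.1 to 47.8 CPM in fed libraries, with 2 called lower, and the 4 detected choroid plexus markers to 16.8 to 28.2 CPM, against 43.96 to 218 CPM in fed libraries, with all 4 called lower. The 4 thalamic markers summed to 161 to 490 CPM at 72 h and 223 to 660 CPM in the cold group, against 232 to 336 CPM in fed libraries. The 9 markers of hypothalamic nuclei summed to 213 to 301 CPM at 72 h and 143 to 233 CPM in the cold group, against 194 to 284 CPM in fed libraries. No marker of either list was called at 72 h or in the cold group against fed. The part of striatal or other tissue in the receptor values was not tested.

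**Figure D3:**
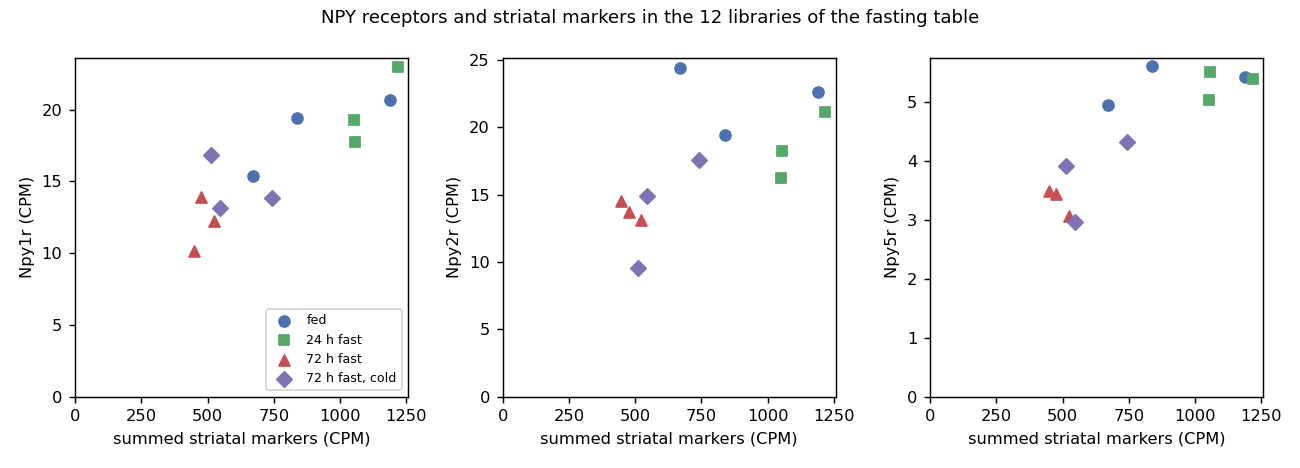
CPM of Npy1r, Npy2r and Npy5r (vertical axes) against the summed CPM of 10 striatal markers (horizontal axes) in the 12 libraries of the fasting table, 1 point a library. The libraries of the 72 h fast lie at 447 to 523 CPM of striatal markers and at the low end of all 3 receptors. Those of the cold group lie at 512 to 741 CPM, cold library 2 above fed library 3, which is at 669 CPM. Fed library 3 has the lowest striatal sum of the fed libraries and the highest Npy2r, at 24.4 CPM.

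Cold during the 72 h fast was set against the 72 h fast without it, and here Agrp had the largest difference among the 5. Agrp was at 3.61, 3.58 and 3.58 CPM in the cold group (118, 113 and 119 counts), against 4.63, 5.89 and 5.64 CPM after 72 h without cold. The groups did not overlap, a trait that was not counted over all genes. The SD of 0.0159 CPM in the cold libraries, at 113 to 119 counts each, is below the spread that counting alone gives. It therefore says little of their precision. Here too the limit on Agrp counts given above holds. The log2 fold change was -0.59 ± 0.15, which did not pass adjustment by edgeR's test (adjusted p = 0.469, unadjusted p = 0.00154) and was between -0.65 and -0.49 without any one library. DESeq2 gave an adjusted p of 0.0990, while in the authors' deposited table the log2 fold change of cold over 72 h was -0.59 with a q-value of 0.0291. Npy had 14.1, 17.9 and 12.2 CPM in the cold group and a log2 fold change of 0.01 ± 0.25, its libraries overlapping with those of 72 h. For the receptors the log2 fold changes were 0.27 ± 0.16 for Npy1r, 0.02 ± 0.19 for Npy2r and 0.16 ± 0.17 for Npy5r. EdgeR called 0% of the 20408 genes here, with 1296 at an unadjusted p under 0.05 and 57 called by DESeq2.

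Against fed mice, Npy2r was lower in the cold group. Npy2r had 14.9, 17.6 and 9.56 CPM in the cold group, against 19.4, 22.6 and 24.4 CPM in fed libraries, a log2 fold change of -0.66 ± 0.19 (edgeR adjusted p = 0.0307) without overlap. It was the 1 member called, where 9.16% of genes were called lower and 8.78% higher, 17.9% in all. Npy5r, with 3.73 ± 0.691 CPM in the cold group and 5.33 ± 0.340 CPM in fed libraries, had a log2 fold change of -0.51 ± 0.17 (adjusted p = 0.0506). Agrp, with 3.59 ± 0.0159 CPM in the cold group and 4.89 ± 0.164 CPM in fed libraries, had one of -0.45 ± 0.15 (adjusted p = 0.0522). Neither overlapped, a trait that was not counted over all genes. Neither was called by edgeR, and DESeq2 called both (adjusted p = 0.0276 for Npy5r and 0.0420 for Agrp). For Npy1r it was -0.34 ± 0.16 (adjusted p = 0.144) and for Npy -0.18 ± 0.25. The call on Npy2r was lost without any of 4 of the 6 libraries, fed library 2 among them (log2 fold change -0.65, adjusted p = 0.0876), and when only the compared groups were fitted (adjusted p = 0.0769).

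The largest differences of any member in any comparison were those of Npy at 1 week of refeeding, against 1 h and against 12 h. Npy was at 27.7, 30.2 and 32.4 CPM after 1 h of refeeding, 22.0, 24.1 and 18.9 CPM after 12 h and 8.11, 7.53, 10.02 and 8.69 CPM after 1 week. No library of one time overlapped with those of another, and the levels stepped down with time. From 1 h to 12 h Npy fell by 0.47 ± 0.11 on the log2 scale (edgeR adjusted p = 0.0126). At 1 week it was 2.52-fold lower than at 12 h (log2 fold change -1.33 ± 0.11, adjusted p = 3.69e-05), with the smallest p of the 19932 genes tested. Against 1 h the 1-week level was 3.50-fold lower (log2 fold change -1.81 ± 0.11, adjusted p = 2.91e-07), second of all genes by p. Both 1-week calls held without any one library, at log2 fold changes between -1.43 and -1.24 against 12 h and between -1.89 and -1.75 against 1 h, and under every other setting tried. The fall from 1 h to 12 h was lost without refed 12 h library 3 (log2 fold change -0.37, adjusted p = 0.0725). The greater depth of the 1-week libraries, or a run of their own, cannot be told apart from the 1-week time point.

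Markers of other neurons did not all follow Npy, those of the arcuate nucleus among them. The 5 detected markers of other arcuate neurons summed to 30.4 to 44.3 CPM at 1 h, 32.4 to 82.2 CPM at 12 h and 40.4 to 72.4 CPM at 1 week, and none was called between 12 h and 1 week, while Prdm12 was called lower at 1 week than at 1 h (log2 fold change -0.89 ± 0.26, edgeR adjusted p = 0.0243). One of the 5 is Pomc, which the pituitary makes as well, and the highest sums stood in libraries with pituitary RNA. Refed 12 h library 2, with the 82.2 CPM, had 61.8 CPM of the 3 detected pituitary markers, against 0.653 and 1.21 CPM in the other 12 h libraries, and 1-week library 3, with the 72.4 CPM, had 161 CPM. Refed 1 h library 1 had 59.2 CPM of pituitary markers with an arcuate sum of 44.3 CPM. Refed 1 h library 2 had 23.8 CPM of them with an arcuate sum of 44.2 CPM. The part of pituitary RNA in the arcuate sums was not tested. The 9 markers of hypothalamic nuclei summed to 291 to 414 CPM at 1 h, 296 to 389 CPM at 12 h and 305 to 522 CPM at 1 week, and of them Crh alone was called, lower at 1 week than at 1 h (log2 fold change -0.59 ± 0.13, adjusted p = 0.00533). The 5 interneuron markers summed to 234 to 267 CPM at 1 h, 289 to 293 CPM at 12 h and 253 to 270 CPM at 1 week. Among them, Nos1 and Tacr1 were called higher at 12 h than at 1 h, Tacr1 lower at 1 week than at 12 h (log2 fold change -0.30 ± 0.09, edgeR adjusted p = 0.0479), and Nos1 higher and Sst lower at 1 week than at 1 h (-0.24 ± 0.08 for Sst, adjusted p = 0.0416). The striatal markers summed to 688 to 1553 CPM at 1 h, 1287 to 1640 CPM at 12 h and 529 to 1437 CPM at 1 week, and none of the 10 was called in any of the refeeding comparisons. The 4 markers of cortical neurons did step down with time like Npy, at 27.7 to 31.3 CPM after 1 h, 21.02 to 28.3 CPM after 12 h and 15.7 to 20.7 CPM after 1 week, and edgeR called 2 of them, Tbr1 and Neurod6, lower at 1 week than at 12 h and 3 lower than at 1 h. The thalamic markers summed to 99.2 to 172 CPM after 1 h, 76.8 to 86.2 CPM after 12 h and 71.9 to 123 CPM after 1 week. Of these 4, Prkcd was called lower than at 1 h both at 12 h (log2 fold change -1.93 ± 0.38, adjusted p = 0.0158) and at 1 week (-1.64 ± 0.33, adjusted p = 0.00962). The part of cortical, thalamic, pituitary or interneuron RNA in the Npy values was not tested. In the authors' deposited table of 1 week over 12 h, Npy had a log2 fold change of -1.33 and also ranked first by p of 18559 genes. As no fed control stands in the refeeding table, where the 1-week level lies relative to fed mice can be read only across tables. The authors' deposited table gives a log2 fold change of 0.91 for fed over 1 week (q-value 0.000156).

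Agrp was highest at 12 h of refeeding. It had 5.06, 4.95 and 6.49 CPM at 1 h, 7.26, 7.83 and 8.06 CPM at 12 h and 6.15 ± 0.304 CPM at 1 week (SD, n = 4). The 12 h libraries were above all others of the table. As said above, how far reads from the coding exons of Agrp entered these counts was not tested. From 1 h to 12 h Agrp rose by 0.49 ± 0.12 on the log2 scale (edgeR adjusted p = 0.0178), and with Npy it made 2 of 5 members called, beside 14.2% of all genes, 7.08% higher and 7.14% lower. This call was lost without any of 4 of the 6 libraries, at adjusted p up to 0.0824. For 1 week over 12 h the log2 fold change was -0.33 ± 0.11 (adjusted p = 0.0696 with edgeR, 0.0460 with DESeq2), and for 1 week over 1 h it was 0.16 ± 0.11.

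Of the receptors, only Npy1r was called during refeeding, and only at 1 week. Npy1r was at 19.1, 15.5 and 21.2 CPM after 1 h, 20.9, 18.2 and 18.9 CPM after 12 h and 10.7, 14.6, 14.9 and 15.4 CPM after 1 week. The 1-week libraries lay below all of both earlier times, the highest of them just under the lowest of 1 h. The log2 fold change was -0.48 ± 0.13 against 12 h (edgeR adjusted p = 0.0286) and -0.42 ± 0.13 against 1 h (adjusted p = 0.0243). With Npy this made 2 of 5 members called lower in each comparison, where 5% of genes were called lower and 6.56% higher against 12 h (11.6% in all), and 13.5% lower and 13.5% higher against 1 h (26.9% in all). The calls on Npy1r were lost without any of 5 of 7 libraries against 12 h and any of 3 of 7 against 1 h, 1-week library 1 among both. As for Npy, depth or a run of their own cannot be told apart from time in the 1-week libraries.

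Npy5r ran alongside Npy1r without a call, at 5.52 ± 0.377 CPM after 1 h (n = 3), 6.24 ± 1.23 CPM after 12 h (n = 3) and 4.66 ± 0.712 CPM after 1 week (n = 4). Its log2 fold change was -0.41 ± 0.15 for 1 week over 12 h (edgeR adjusted p = 0.0866) and -0.24 ± 0.15 for 1 week over 1 h. For 1 week over 12 h, the authors' deposited edgeR table gives Npy5r a q-value of 0.0349. The mean of Npy2r was in a different order, with 17.4 ± 2.17 CPM at 1 h, 21.2 ± 2.39 CPM at 12 h and 22.0 ± 4.51 CPM at 1 week. Its log2 fold change for 1 week over 1 h was 0.33 ± 0.14 (adjusted p = 0.102).

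**Figure D4:**
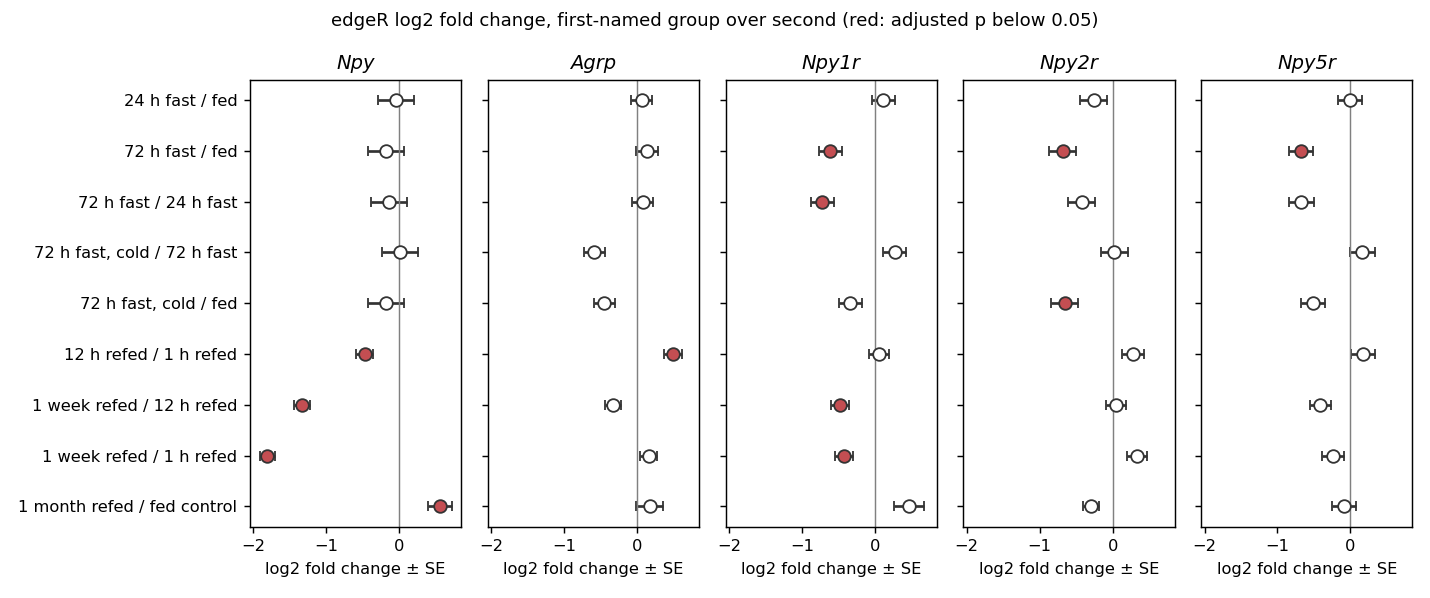
Log2 fold change ± SE (horizontal axes) of each member in the 9 comparisons, first-named group over second, from edgeR. Red points passed an adjusted p of 0.05, which 12 of the 45 tests did. The points farthest from 0 are those of Npy at 1 week of refeeding.

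After 1 month of refeeding, Npy was above the fed control, and its groups overlapped. Npy had 31.5, 30.03, 33.8 and 36.6 CPM in refed libraries, against 16.7, 18.1, 31.3 and 23.5 CPM in fed controls. The control libraries spread over more than the distance between the means, with control library 4 among the refed ones. The log2 fold change was 0.56 ± 0.16 (edgeR adjusted p = 0.0401), the 1 member called, beside 6.37% of genes called higher and 3.76% lower, 10.1% in all. It was lost without any of 7 of the 8 libraries, at adjusted p up to 0.119, and without control library 4, the high one, the log2 fold change was 0.75 (adjusted p = 0.00147).

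Among the other members at 1 month, Npy1r had 20.9 to 25.03 CPM in refed libraries and 8.83 to 22.1 CPM in fed controls, a log2 fold change of 0.47 ± 0.21 (edgeR adjusted p = 0.170). Npy2r averaged 22.7 ± 1.93 CPM in refed libraries and 27.9 ± 2.92 CPM in fed controls (SD, n = 4 each). These groups did not overlap, a trait that was not counted over all genes. Of the 14867 genes tested here, 4028 had an unadjusted p under 0.05 by edgeR's test. The log2 fold change of Npy2r was -0.30 ± 0.10 (adjusted p = 0.0764), and the authors' deposited table gives 0.29 for fed control over refed with a q-value of 0.0403. Agrp averaged 7.92 ± 1.86 CPM in refed libraries and 7.09 ± 1.45 CPM in fed controls, and Npy5r 8.62 ± 0.782 CPM in refed libraries and 9.22 ± 2.09 CPM in fed controls, both within the spread. The striatal markers summed to 303 to 327 CPM in refed libraries and 335 to 366 CPM in fed controls. Markers of the choroid plexus, 3 of 5 detected, summed to 52.6 to 62.1 CPM in refed libraries and 35.4 to 43.3 CPM in fed controls. Of these, Kl and Kcnj13 were called higher, while Clic6 had a log2 fold change of -0.20 ± 0.12 without a call. The part of striatal or choroid plexus tissue in the Npy value was not tested.

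Around the 5 members, a list of 33 pathway genes was followed: the 4 other family genes, other genes of AgRP neurons, the melanocortin side, peptide processing and transcriptional regulators of Agrp and Npy. Of these, 29 were tested, and edgeR called none after 24 h of fasting. After 72 h against fed, 3 of 29 were called lower and none higher, beside 7.78% of all genes called lower and 7.28% higher, a share near that of all genes. These were Gad1, which makes GABA (log2 fold change -0.34 ± 0.11, adjusted p = 0.0460), Pcsk1, a convertase that cuts peptide precursors (-0.57 ± 0.12, adjusted p = 0.0131), and Creb1, a transcription factor that responds to cyclic AMP (-0.46 ± 0.08, adjusted p = 0.00942). In the cold group against fed, 3 of 29 were called lower and 1 higher, beside 9.16% of all genes lower and 8.78% higher, and so no larger a share than over all genes. Pomc, which encodes the precursor of the melanocortins, had 2.31 ± 0.727 CPM in the cold group and 6.11 ± 0.752 CPM in fed libraries (log2 fold change -1.41 ± 0.28, adjusted p = 0.00890). Pcsk1 and Creb1 were lower again, and Pcsk2, a second convertase, was higher (0.41 ± 0.13, adjusted p = 0.0497).

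In refeeding, 12 h over 1 h, 2 of the 29 pathway genes were called lower and none higher, beside 7.14% of all genes lower and 7.08% higher. Ghsr, the receptor through which ghrelin excites AgRP neurons, had 3.28 ± 0.400 CPM at 12 h and 5.37 ± 0.637 CPM at 1 h (log2 fold change -0.71 ± 0.18, edgeR adjusted p = 0.0156), and Cpe, which trims peptide ends, changed by -0.30 ± 0.08 (adjusted p = 0.0221). For 1 week over 12 h, where 11.6% of all genes were called, only Pam, which amidates peptides such as neuropeptide Y, was called among the 29, at 0.27 ± 0.08 (adjusted p = 0.0473). For 1 week over 1 h, 5 of 29 were called higher and 4 lower, beside 26.9% of all genes called, 13.5% in each direction. Higher were Mrap2, an accessory protein of melanocortin and ghrelin receptors (0.54 ± 0.09, adjusted p = 0.000535), Asb4 (0.79 ± 0.16, adjusted p = 0.00361), Calcr, the calcitonin receptor, Pam and the glucocorticoid receptor gene Nr3c1. Lower were Ghsr (-0.60 ± 0.16, adjusted p = 0.0107), Cpe, Gad2 and the insulin receptor gene Insr.

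At 1 month, 2 of the 29 pathway genes were called higher and 1 lower, near the 10.1% of all genes called. Lepr, the leptin receptor gene, whose signal lowers the activity of AgRP neurons, had 27.8 ± 2.68 CPM in refed libraries and 18.4 ± 2.82 CPM in fed controls (log2 fold change 0.60 ± 0.12, edgeR adjusted p = 0.00369, n = 4 each). Dpp4, a peptidase that clips neuropeptide Y, had 10.8 ± 4.24 CPM in refed libraries and 2.48 ± 1.85 CPM in fed controls (2.12 ± 0.45, adjusted p = 0.0213). Pcsk1 was lower, at -0.31 ± 0.09 (adjusted p = 0.0352). Of the choroid plexus markers named above, Kl and Kcnj13 were higher in the same group as Lepr and Dpp4, and Clic6 was not. The part of choroid plexus tissue in the values of Lepr and Dpp4 was not tested.

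Across all 30 libraries, with each table centred on its own mean, Npy1r and Npy5r were the members most alike, with a Pearson r of log2 CPM of 0.70, and r was 0.83 in the fasting table, 0.79 in the refeeding table and 0.52 in the 1-month table. Npy and Agrp, the peptides of one neuron type, had an r of 0.10, at 0.06 in the fasting table, -0.02 in the refeeding table and 0.43 in the 1-month table. The limit on the counts of Agrp in the fasting and refeeding tables, given above, holds for every r of Agrp here. For Npy and Npy1r it was 0.59 over all, at 0.34 in fasting, 0.75 in refeeding and 0.89 at 1 month. For Npy and Npy2r the sign differed between tables, with 0.50 in fasting, -0.49 in refeeding and -0.35 at 1 month. Among 13649 genes, those whose pattern was most like that of Npy were Thra (r = 0.81), Plekha3 (0.80) and Eif3f (0.79). For Agrp they were Nudt7 (0.72), Oma1 (0.71) and Tmem205 (0.70). For Npy2r they were Zdbf2 (0.86), Rab9b (0.84) and Sin3b (0.83), and for Npy5r Elmod1 (0.83), Mfap3l (0.81) and Krt9 (0.80). These correlations describe libraries that share groups, depth and tissue makeup.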

How the data were processed

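Total RNA of mouse hypothalamus had been depleted of ribosomal RNA and made into directional libraries, per the labels' protocols. Reads were aligned to mm10, and HISAT2, featureCounts and edgeR are the tools listed, per the submitters' processing notes, which give no counting options. The authors deposited raw gene counts in 3 tables, and edgeR tables with a log2 fold change, a p-value and a q-value per gene, used here only where named.

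Each count table was fitted on its own with all its groups, in edgeR 4.0.16 (R 4.3.3): filterByExpr, TMM, robust quasi-likelihood F tests, Benjamini-Hochberg adjustment over all genes tested, a prior count of 0.125 and calls at an adjusted p below 0.05. The 95% intervals are normal, from the SE. Alternatives were DESeq2 1.42.0, RLE scaling, no filter, fits of the compared groups alone, a replicate block and each library left out. Members, gene lists and comparisons were chosen with earlier results of these data known. From the lists, called members are named (beyond 6, the 4 with the smallest adjusted p), and a part of them is printed. Patterns were compared by Pearson r of log2 CPM centred per table, over genes of at least 1 CPM, and the 3 nearest are named, except for Npy1r, for which they are not reported here. Overlap with other genes was checked for the 5 members and not for the other genes named. Of the table columns, 2 that matched no label were not used. At 1 month the counts of a gene are fewer and its precision lower than in the other tables.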

Additional observations from a re-analysis of the deposited data

Results flagged for a closer look

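In the 1-week refed group, 1-week library 1 had the lowest Npy1r, at 10.7 CPM, and stood apart from the other 3, which were at 14.6 to 15.4 CPM. Its gap to the nearest library was 0.840 of the group's range, above Dixon's critical value of 0.829 for 4 samples. In the same group, 1-week library 2 had the highest Npy2r, at 28.6 CPM, against 18.9 to 20.5 CPM in the other 3, a gap of 0.832 of the range. The striatal markers summed to 827 CPM in library 1 and 529 CPM in library 2, against 1437 CPM in library 3 and 1123 CPM in library 4, and the cause was not tested. Of 15 groups of 4 examined, 2 stood out in this way, and chance gives about 1 in 20.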

How the results depend on the processing

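Only the falls of Npy at 1 week of refeeding, against 12 h and against 1 h, kept their call without any one library and under every setting, 2 of the 12 called changes of members. DESeq2 added calls on Npy5r (72 h over 24 h, cold over fed) and on Agrp (cold over fed, 1 week over 12 h). Whether libraries with the same replicate number belong together was not settled. Over all genes, deviations of same-numbered libraries had correlations of -0.203 to 0.308. Yet the summed markers of hypothalamic nuclei were highest in library 2 and lowest in library 3 in each fasting group. The same order stood at 1 h and 12 h of refeeding, and its cause was not tested. The replicate block ended the calls on Npy1r for 72 h over 24 h (adjusted p = 0.0590) and on Npy at 1 month (adjusted p = 0.0813) and lowered the number of genes called at 1 month to 408. Called genes numbered 7 for 24 h over fed (13 with no filter, 240 with DESeq2, 3 to 56 without one library each), 3072 for 72 h over fed (4707 with DESeq2, 434 to 5446), 333 for 72 h over 24 h (1776 with DESeq2, 0 to 328), 0 for cold over 72 h (57 with DESeq2, 0 to 5), 3661 for cold over fed (932 to 5507), 2834 for 12 h over 1 h (1314 to 3537), 2304 for 1 week over 12 h (589 to 3050) and 1506 at 1 month (775 to 2856). The cause was not tested.

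Signs turned only for log2 fold changes that were not called. Npy5r for 24 h over fed was 0.0060 with RLE scaling and 0.0077 with DESeq2, and Npy for cold over 72 h was -0.025 with the replicate block. Without one library each, log2 fold changes ran from -0.39 to 0.19 for Npy, from -0.0038 to 0.20 for Npy1r and from -0.055 to 0.034 for Npy5r (24 h over fed), from -0.34 to 0.046 for Npy (72 h over fed), from -0.00065 to 0.16 for Agrp and -0.34 to 0.20 for Npy (72 h over 24 h), from -0.16 to 0.13 for Npy and -0.17 to 0.24 for Npy2r (cold over 72 h), from -0.34 to 0.052 for Npy (cold over fed), from -0.072 to 0.14 for Npy1r (12 h over 1 h), from -0.10 to 0.15 for Npy2r (1 week over 12 h), and from -0.013 to 0.28 for Agrp and -0.19 to 0.040 for Npy5r (1 month).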

Other observations

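The balance of the peptides, as the ratio of Npy to Agrp CPM within a library and not corrected for length, had a median of 3.19 in fed libraries, 2.61 at 24 h and 2.49 at 72 h of fasting, and 3.92 in the cold group. It was 4.99 to 6.10 after 1 h of refeeding, 2.34 to 3.08 after 12 h and 1.21 to 1.70 after 1 week, with no overlap between these times. At 1 month it was 2.83 to 5.03 in refed libraries and 2.29 to 3.58 in fed controls. The limit on the counts of Agrp given above holds for these ratios. Among the receptors, the ratio of Npy1r to Npy2r was 0.861 to 1.25 in 1-month refed libraries and 0.358 to 0.722 in fed controls, without overlap. These ratios were computed after the levels had been seen and carry no test.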
